A study of Sus scrofa with 12 samples.

Results

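In pig liver small RNA libraries, 85 of the 774 deposited miRNA entries carried a name borrowed from another species and matched no porcine entry of the same table. They were the entries of the known class, named after miRNAs of other species, with a mean of at least 1 TPM (tags scaled to a fixed library total) over 12 libraries. Their first 16 nt had to differ from those of all 303 entries with a porcine name. Of 379 known entries, 187 reached that level and 98 of these had no match, and 13 of those with preset names or miR numbers were not included. Such names end in a letter that the files do not define and that is read here as the strand, x as 5p, y as 3p and z as unspecified; 25 entries ended in x, 35 in y and 25 in z. The entries were thus selected on their mean TPM and on their sequence, so neither their level nor the missing match is a result. Just inside the threshold were miR-6937-x at 1.16 TPM, miR-185-y at 1.09 TPM, and miR-10174-x and miR-23-x at 1.01 TPM each, and just outside it miR-3535-z at 0.987 TPM, miR-505-x at 0.980 TPM and miR-4497-z at 0.862 TPM.

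The libraries came from liver of Bama and Hezuo pigs sampled on day 15. Each breed had 3 libraries from pigs kept at a normal temperature of 23 ± 2 °C and 3 from pigs under cold at -15 ± 2 °C, and the normal groups served as controls. The study asked which liver RNAs respond to cold and mark the Hezuo breed, examined for cold resistance. The labels give no sex, age or litter. The listed counts ran from 7184168 to 10384074 per library. The hepatocyte miRNA ssc-miR-122-5p, the defining miRNA of liver, stood at 394777 to 700036 CPM (counts scaled to a common library size) in the 12 libraries. The library Hezuo normal 3 stood apart with that highest value and a scaling factor of 0.816, against 0.952 to 1.101 in the others.

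A miRNA is cut from a hairpin whose 5p and 3p arms can each give a mature strand, and usually one of them is much more abundant. Bases 2 to 8 of the strand, the seed, select the mRNAs it represses, so a start moved by a single base gives another seed. Transfer RNAs end in CCA, a triplet that cells add to their 3′ end, and short RNAs ending in CCA can therefore share their 3′ end with tRNAs.

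The label that these are conserved miRNAs without a porcine entry held only in part. For 39 of the 85 the same miR number did have a porcine entry in the table, and for 46 it did not. Among the pig miRNA genes of the RefSeq annotation (Sscrofa11.1) the number was found for 34. By their sequence and number the entries were sorted in order into 4 kinds. A CCA end came first and took 17 entries, none with a porcine entry of its number. Next came 13 whose sequence ran along a porcine entry from a 5′ start shifted by 1 to 3 nt. Of the rest, 26 were the other strand or a relative of a porcine number, and 29 had a number that no porcine entry carried. The 85 names covered 81 distinct sequences. MiR-10174-x and miR-23-x, with 1 sequence and the same counts, fell into different kinds because only number 23 has porcine entries.

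Sequences of the shifted kind are shown because the seed, in capitals, moved with the start. Each is followed by its porcine entry, and miR-215-z is set against both candidates.
miR-215-z: tGACCTATgaattgacagccat
ssc-miR-192: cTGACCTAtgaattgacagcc
ssc-miR-215: aTGACCTAtgaattgacagac
miR-10-x: aCCCTGTAgatccgaatttgtga
ssc-miR-10a-5p: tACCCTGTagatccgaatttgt
miR-140-y: aCCACAGGgtagaaccacggacgt
ssc-miR-140-3p: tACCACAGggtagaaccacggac
miR-29-y: tAGCACCAtctgaaatcggttttt
ssc-miR-29a-3p: cTAGCACCatctgaaatcggtta

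Leading sequences of the kind of 29 entries with a number lacking a porcine entry follow, with the seed in capitals. They show the seeds that miR-25-y and miR-93-x share with porcine entries and those by which miR-506, miR-507, miR-508 and miR-509 differ.
miR-25-y: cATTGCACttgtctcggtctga
miR-93-x: cAAAGTGCtgttcgtgcaggtag
miR-203-y: tGAAATGTttaggaccactagt
miR-508-y: aCTGTCACctttttgagtaga
miR-507-y: tGATTGGCacctctttgagtga
miR-506-z: tGAATGGCgcctttctgagtaga
miR-509-y: tGATTGACacctctgttagtgg

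Strands opposite to a porcine entry, or closely related to one, are given by 4 examples with the seed in capitals, 2 of them from the miR-193 hairpins.
miR-125-y: aCAAGTCAggctcttgggacc
miR-106-y: cCGCACTGtgggtacttgctgc
miR-193-x: cGGGGTTTtgagggcgagatg
miR-193-y: aACTGGCCcacaaagtcccgct

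Of the sequences ending in CCA, the most abundant are shown with that end in capitals.
miR-9995-y: atctcggtggaacctCCA
miR-9993-y: atctcggtgggacctCCA
miR-2779-z: ttccggctcgaaggaCCA
miR-7550-z: atccggctcgaaggaCCA
miR-2478-z: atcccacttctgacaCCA

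Together the 85 entries made up 1.01% to 1.41% of the listed counts of a library, with a mean of 1.19% ± 0.166 (SD, n = 12 libraries). One entry, miR-215-z, held 72.7% of their counts. The median level was 5.15 CPM and levels ran from 1.153 to 8671 CPM; 31 entries averaged at least 10 CPM and 10 at least 100 CPM. The shifted kind took 76.3% of the entries' counts, the CCA kind 13.3%, the kind without a porcine number 7.90% and the other strands 2.42%. The median level was highest in the CCA kind at 21.1 CPM, followed by the other strands at 5.60 CPM, the shifted kind at 3.97 CPM and the kind without a porcine number at 2.61 CPM. Across the 12 libraries 20 entries varied by less than 2-fold and 21 by 5-fold or more. No entry had a count of 0 in any library, and the lowest count was 1.

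**Figure D1:**
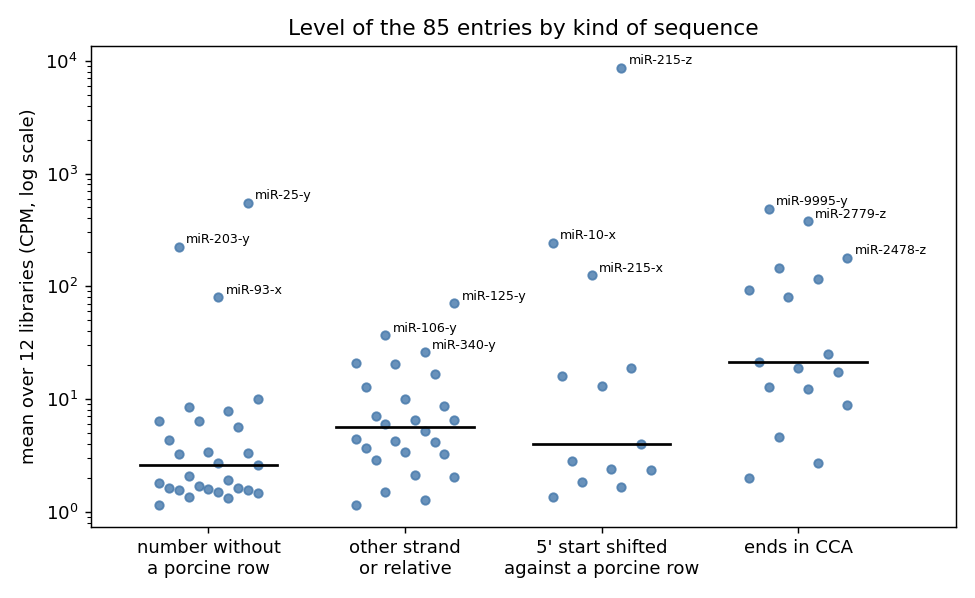
Mean level of each of the 85 entries over 12 libraries (CPM, log axis) by kind, with 1 point per entry and a bar at the median of the kind; the 3 most abundant entries of each kind are named. MiR-215-z at 8671 CPM lies far above the rest, and the kind ending in CCA has the highest median at 21.1 CPM.

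Among the 29 entries outside the CCA kind whose number had no porcine entry, miR-25-y, miR-203-y and miR-93-x were the most abundant. MiR-25-y shares its seed with the porcine entries of miR-92a, miR-92b-3p, miR-32 and miR-363, a family known for promoting the cell cycle. It stood at 604, 566 and 543 CPM in Bama normal, 537, 531 and 607 CPM in Bama cold, 498, 584 and 492 CPM in Hezuo normal, and 526, 492 and 592 CPM in Hezuo cold. All groups overlapped, and its highest library was 1.23 times its lowest. The log2 difference was 0.00 between cold and normal (SE 0.08, adjusted p = 0.9999) and -0.09 between Hezuo and Bama (SE 0.08, adjusted p = 0.513).

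In human and mouse, miR-25 lies with miR-93 and miR-106b in an intron of MCM7, a gene of DNA replication. MiR-93-x, with the seed of the porcine miR-17-5p, miR-20a-5p, miR-20b and miR-106a entries, averaged 79.7 CPM with a range of 66.4 to 107.3 CPM. MiR-106-y, a 3p strand by its name, averaged 36.8 CPM with a range of 32.5 to 45.4 CPM. The porcine entry of the same number, ssc-miR-106a of the 5p strand, was at 0.380 CPM. These entries were matched by number only. Whether they come from the same hairpin was not tested, so their levels give no ratio between strands. MiR-93-x differed by -0.20 between cold and normal (adjusted p = 0.367) and by 0.14 between Hezuo and Bama (adjusted p = 0.485), and neither passed. For miR-106-y the log2 differences were 0.02 for cold (adjusted p = 0.950) and 0.02 for breed (adjusted p = 0.957). Of the 5 entries under the cell cycle and miR-17/92 numbers, 0 passed in either direction, averaged over breeds for cold (2.17% of all entries tested did) or averaged over temperatures for breed (11.1%), and with 5 entries nothing is read from that count.

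MiR-203-y is best known from skin and other layered epithelia, where it restrains growth of basal cells. It stood at 194.1, 182 and 146.8 CPM in Bama normal and at 234, 200.3 and 259 CPM in Bama cold. In Hezuo it was 254, 240.3 and 230.2 CPM at normal temperature and 282.8, 232 and 239 CPM under cold. The Bama normal livers lay below all 9 others. The Hezuo minus Bama difference at normal temperature was 0.47 (SE 0.14, adjusted p = 0.0585), and cold minus normal in Bama was 0.41 (SE 0.14, adjusted p = 0.175); neither passed. MiR-203-z, the same sequence with another last base, averaged 2.68 CPM, and its difference between the breeds at normal temperature was 0.82 (SE 0.37, adjusted p = 0.226).

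The entries numbered miR-506 to miR-509 belong, in human and other mammals, to a cluster on the X chromosome known chiefly from testis. In these livers they were low, and the group was picked out after its values were seen. MiR-508-y stood at 4.26, 3.35 and 2.85 CPM in Bama normal, 6.75, 5.43 and 12.6 CPM in Bama cold, 7.95, 14.9 and 14.6 CPM in Hezuo normal, and 10.4, 6.98 and 12.2 CPM in Hezuo cold. All 3 Bama normal livers lay below the other 9. MiR-507-y stood at 4.26, 3.22 and 0.777 CPM in Bama normal, 5.40, 4.34 and 8.36 CPM in Bama cold, 5.50, 9.48 and 8.85 CPM in Hezuo normal, and 6.24, 4.52 and 6.49 CPM in Hezuo cold. Here too the Bama normal livers were the 3 lowest.

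MiR-507-z, which extends miR-507-y by 1 base, ran from 0.532 to 1.04 CPM in Bama normal and from 1.22 to 4.29 CPM in the other groups. MiR-506-z ran from 0.648 to 1.46 CPM in Bama normal and from 2.08 to 4.43 CPM in Hezuo normal, without overlap. MiR-509-y ran from 0.259 to 1.86 CPM in Bama normal and from 0.611 to 2.41 CPM in Hezuo normal, with overlap. MiR-514-y had the sequence and the counts of miR-509-y and adds nothing to it. The 5 distinct entries summed to 8.99 ± 3.40 CPM at normal temperature and 20.8 ± 8.30 CPM under cold in Bama, and to 27.9 ± 9.24 and 21.4 ± 3.13 CPM in Hezuo (SD, n = 3 each). Their sequences are close only in part. The seeds of miR-507-y and miR-509-y differ at 1 base, as do those of miR-507-y and miR-506-z. The seed of miR-508-y differs from those of the others at 4 or 5 bases, and it shares no run longer than 8 nt with them.

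**Figure D2:**
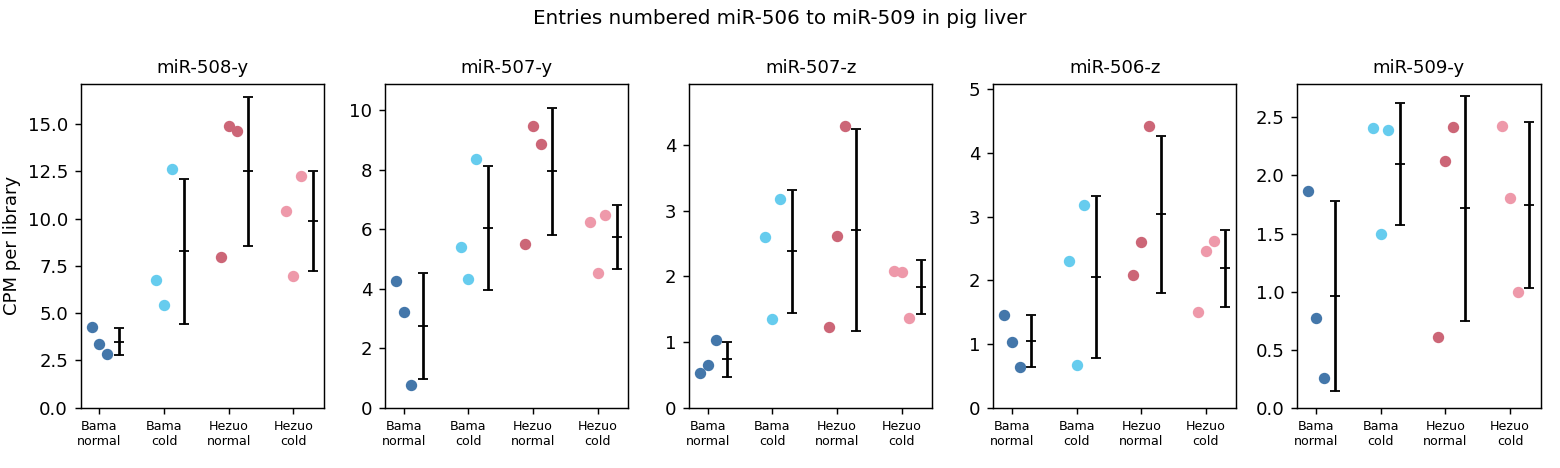
Level of the 5 distinct entries numbered miR-506 to miR-509 in each library (CPM), with 1 point per library, 3 per group, and a bar for the group mean ± SD beside them; each panel has its own vertical axis. For miR-508-y and miR-507-y the 3 Bama normal libraries lie below the other 9.

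In Hezuo livers at normal temperature miR-508-y was 3.58-fold higher than in Bama livers (1.84 log2 units, SE 0.36, adjusted p = 0.0135). It was the only one of the 85 entries (1.18%) to pass in this comparison, against 3.7% of all 460 entries tested. A call here and below is an adjusted p below 0.05 over these 460. MiR-507-z at 1.85 (SE 0.52, adjusted p = 0.0550), miR-507-y at 1.53 (SE 0.45, adjusted p = 0.0586), miR-506-z at 1.52 (SE 0.53, adjusted p = 0.112) and miR-509-y at 0.83 (SE 0.63, adjusted p = 0.491) did not pass. Without Hezuo normal 3 miR-508-y was at 1.68 (adjusted p = 0.0608), and without Bama normal 3 at 1.71 (adjusted p = 0.0962), so that its call ended. In whole liver, fewer cells of a type and less RNA per cell cannot be told apart.

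Under cold, miR-508-y in Bama was at 1.24 above normal (SE 0.37, adjusted p = 0.100), miR-507-z at 1.67 (SE 0.53, adjusted p = 0.143) and miR-507-y at 1.13 (SE 0.45, adjusted p = 0.281). In all 3 every cold Bama liver lay above every normal one, but none passed by edgeR. DESeq2 gave miR-508-y an adjusted p of 0.0336. In Hezuo the cold minus normal values were -0.34 for miR-508-y, -0.54 for miR-507-z and -0.47 for miR-507-y, with adjusted p from 0.778 to 0.816. The test of the difference between the breeds' responses gave -1.58 for miR-508-y (SE 0.50), -2.22 for miR-507-z (SE 0.71) and -1.59 for miR-507-y (SE 0.62), each with an adjusted p of 0.766. That difference and the breed comparison use the same Bama normal libraries.

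Of the remaining entries of the kind without a porcine number, miR-484-x averaged 10.02 CPM. It stood at 12.8, 12.4 and 14.8 CPM in Bama normal and at 9.35, 7.06 and 8.09 CPM in Bama cold, without overlap (-0.70, SE 0.25, adjusted p = 0.202). In Hezuo it was 7.70, 12.8 and 7.38 CPM at normal temperature and 8.55, 10.99 and 8.48 CPM under cold, with overlap. MiR-33-x, which in mammals lies in a gene for a sterol regulatory factor and represses cholesterol export genes, averaged 1.68 CPM, with -0.30 for cold (SE 0.26, adjusted p = 0.579) and -0.11 for breed (SE 0.26, adjusted p = 0.838). MiR-652-y, X-linked in human, was the only one of the 29 whose number was found among the pig genes of RefSeq, and it averaged 3.23 CPM. It was at -0.37 in Hezuo against Bama (SE 0.21, adjusted p = 0.287).

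Because a moved start gives another seed, none of the 13 entries of the shifted kind kept the seed of the porcine entry it ran along. MiR-215-z and miR-215-x start 1 nt inside ssc-miR-192 and are identical to it over all 20 shared bases, against a run of 18 of 20 for ssc-miR-215, whose number they carry. The miR-192 and miR-215 family is abundant in liver and gut epithelium. MiR-215-z averaged 8671 CPM, ssc-miR-192 21701 CPM and ssc-miR-215 50.8 CPM. Its own levels were 7898, 9969.6 and 7130.1 CPM in Bama normal, 6672, 7114 and 7378 CPM in Bama cold, 10656, 9538 and 11204 CPM in Hezuo normal, and 9799, 7695 and 9001 CPM in Hezuo cold. Under cold every Hezuo liver lay above every Bama liver, and at normal temperature the groups overlapped through Bama normal 2.

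As a share of the pair formed with ssc-miR-192, miR-215-z held 26.2% ± 1.61 in Bama livers at normal temperature and 24.5% ± 2.05 under cold, against 33.2% ± 1.54 and 30.4% ± 2.997 in Hezuo livers (SD, n = 3 each). The levels of ssc-miR-192 itself overlapped between the breeds, with 19782 to 25893 CPM in Bama livers and 17779 to 24058 CPM in Hezuo livers. MiR-215-x, which differs from miR-215-z at its 3′ end, averaged 125 CPM. It ran between 99.7 and 135.2 CPM in Bama livers and between 127.2 and 154.5 CPM in Hezuo livers. How tags were assigned to such overlapping entries is not stated, so the division between them is uncertain.

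Averaged over both temperatures, miR-215-x was higher in Hezuo than in Bama by 0.36 (SE 0.10, adjusted p = 0.0247) and miR-215-z by 0.33 (SE 0.09, adjusted p = 0.0307). MiR-508-y, at 1.05 (SE 0.25, adjusted p = 0.0138), was the third entry to rise. These 3 made up 3.53% of the 85, all higher in Hezuo, against 51 called of the 460 tested (11.1%), 31 of them higher (6.74%). Under cold alone miR-508-y was at 0.26 (SE 0.34, adjusted p = 0.812), with overlapping groups. The calls of miR-215-x and miR-215-z were each lost when any of 9 libraries was left out (adjusted p up to 0.106 and 0.117) and under scaling to library totals (0.0862 and 0.0802). Without Hezuo normal 3 they were at 0.31 (adjusted p = 0.102) and 0.28 (adjusted p = 0.106), and miR-508-y at 0.96 (adjusted p = 0.0372).

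**Figure D3:**
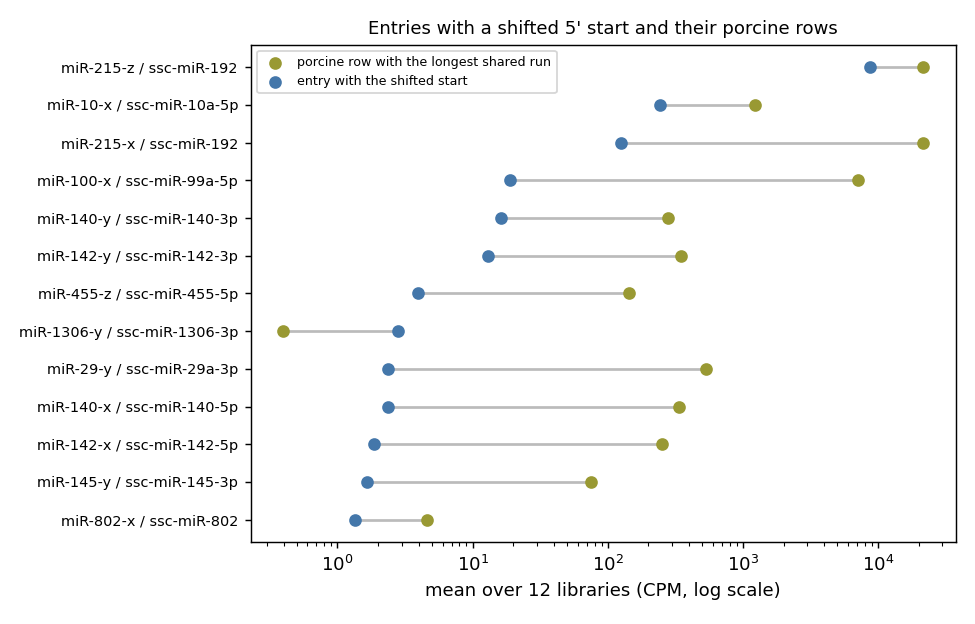
Mean level over 12 libraries (CPM, log axis) of the 13 entries with a shifted 5′ start and of the porcine entry with which each shares its longest run. For miR-1306-y the entry lies above its porcine counterpart, at 2.83 against 0.394 CPM, and for the other 12 it lies below.

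Most of the other shifted entries were minor forms. MiR-10-x, a number of the Hox gene clusters, averaged 242 CPM, or 19.7 tags per 100 of ssc-miR-10a-5p, and its group means lay between 232 and 253 CPM. MiR-100-x starts 1 nt ahead of ssc-miR-99a-5p and is identical to it over 21 nt, although it is named for miR-100; it had 0.265 tags per 100. MiR-142-y, from a miRNA of blood cells, had 3.77 tags per 100 of ssc-miR-142-3p, and miR-455-z, a number studied in cartilage and brown fat, 2.78 per 100 of ssc-miR-455-5p. MiR-29-y ran along ssc-miR-29a-3p from a start 1 nt inside, and the seed it gained is the one of ssc-miR-29b and ssc-miR-29c. It averaged 2.38 CPM beside 538 CPM of ssc-miR-29a-3p.

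MiR-140-y is a 3p form of a cartilage miRNA and starts 1 nt inside ssc-miR-140-3p. It stood at 13.2, 11.3 and 11.7 CPM in Bama normal, 15.0, 17.9 and 18.4 CPM in Bama cold, 17.7, 19.8 and 13.95 CPM in Hezuo normal, and 18.6, 20.2 and 15.97 CPM in Hezuo cold. Bama normal lay below all other livers, with 0.50 for cold in Bama (SE 0.19, adjusted p = 0.251) and 0.51 for Hezuo against Bama at normal temperature (SE 0.19, adjusted p = 0.156). It held 5.24% ± 0.494 of its pair with ssc-miR-140-3p at normal temperature and 4.68% ± 0.455 under cold in Bama, against 6.37% ± 0.705 and 5.83% ± 0.344 in Hezuo (SD, n = 3 each). MiR-802-x, a 5p form of a miRNA expressed in liver and linked to glucose metabolism in mice, had a lower level of 1.34 CPM. It was at 1.13 in Hezuo against Bama (SE 0.40, adjusted p = 0.0865) and did not pass.

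Of the 26 other strands and relatives, 20 were below the most abundant porcine row of their number, which could be another strand or relative. MiR-125-y averaged 70.5 CPM, with a range of 61.3 to 80.3 CPM, or 13.8 tags per 100 of ssc-miR-125b. MiR-340-y averaged 25.9 CPM, or 17.4 tags per 100 of ssc-miR-340. MiR-335-y, a 3p strand, was the reverse case with 20.3 CPM against 3.86 CPM of ssc-miR-335, and it ranged from 8.78 to 26.3 CPM. MiR-223-x, the 5p strand of a neutrophil miRNA, averaged 5.15 CPM, against 2.73 CPM of ssc-miR-223. Let-7-y averaged 20.7 CPM beside 5577 CPM of ssc-let-7f-5p, the most abundant row of its number. Against ssc-let-7d-3p, the closest row with 2 differences in the first 16 nt, it had 112.8 tags per 100.

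MiR-193-x and miR-193-y are the 5p and 3p strands of number 193, which in mice has been linked to brown fat formation together with miR-365. The first 16 nt of miR-193-y differ at 1 base from ssc-miR-193a-3p. MiR-193-x stood at 10.2, 9.93 and 8.42 CPM in Bama normal, 8.58, 6.65 and 7.83 CPM in Bama cold, 10.6, 10.54 and 13.5 CPM in Hezuo normal, and 11.8, 11.9 and 9.98 CPM in Hezuo cold. Every Hezuo liver exceeded every Bama liver at both temperatures. It was the only one of the 85 entries (1.18%) whose breeds stood apart at both temperatures in the same direction, higher or lower, against 7.61% of all entries tested. Its difference was 0.41 (SE 0.15, adjusted p = 0.0865) and that of miR-193-y 0.43 (SE 0.16, adjusted p = 0.0954), and neither passed. MiR-365-x was at 0.40 (SE 0.19, adjusted p = 0.209).

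MiR-144-x is the 5p strand of an erythroid miRNA and stood at 3.86, 1.93 and 2.85 CPM in Bama normal and at 3.37, 5.84 and 3.72 CPM in Bama cold. In Hezuo it was 5.26, 16.6 and 3.09 CPM at normal temperature and 9.59, 4.39 and 16.8 CPM under cold. Hezuo normal 2 and Hezuo cold 3 were the highest. Its difference between the breeds was 1.40 (SE 0.45, adjusted p = 0.0660) and did not pass; DESeq2 gave an adjusted p of 0.0130. By edgeR it passed at 1.57 without Hezuo normal 3 (adjusted p = 0.0205) and at 1.52 without Hezuo cold 2 (adjusted p = 0.0367). These were the Hezuo libraries where miR-144-x was lowest, and leaving out any other library gave no call. The erythroid entries ssc-miR-144, ssc-miR-451 and ssc-miR-486 were also highest in Hezuo normal 2 and Hezuo cold 3. There ssc-miR-144 had 209 and 198.5 CPM, against 34.4 to 105.01 CPM elsewhere. For ssc-miR-451 the values were 1639 and 2209.9 CPM, against 384 to 1275 CPM. For ssc-miR-486 they were 18.3 and 17.5 CPM, against 4.77 to 9.44 CPM. The part of these erythroid entries in the result was not tested. Of the 5 entries under immune and blood numbers, 0 passed by edgeR with all libraries in any of the 7 comparisons, in which 0% to 11.1% of all entries tested did.

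Of the 85 entries, 17 (20%) ended in CCA, against 2 of the 303 porcine entries (0.660%), 2 of the 92 predicted ones (2.17%) and 26 of all 774 (3.36%). Among the 294 other entries named after other species, 5 (1.70%) did. The letters CCA were read at the 3′ end of the listed strand only, and 15 of the 17 were 18 nt long. Of the 303 porcine entries 0 had that length, against 18 of the 85. The comparison therefore does not separate a CCA end from a short length. MiR-9995-y was the most abundant at 487.6 CPM, followed by miR-2779-z at 377 CPM, miR-2478-z at 178 CPM and miR-9993-y at 146.6 CPM. MiR-2779-z, miR-7550-x and miR-11202-x carried 1 and the same sequence yet had different counts, 36978, 11293 and 9015 in total. Per library, miR-7550-x had 26.4 to 37.5 counts and miR-11202-x 20.7 to 27.8 counts per 100 of miR-2779-z. Which tags were given to which of the 3 names is not stated, so their levels one by one are uncertain.

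MiR-9995-y stood at 526, 666 and 258 CPM in Bama normal, 502.3, 443 and 578 CPM in Bama cold, 666, 338 and 553 CPM in Hezuo normal, and 397.1, 420.9 and 502.8 CPM in Hezuo cold. All groups overlapped, and both normal groups were wider than the cold ones. Summed over the 17 entries, the level was 1764, 2157 and 1077 CPM in Bama normal, 1549, 1419 and 1849 CPM in Bama cold, 1975, 1220 and 1731 CPM in Hezuo normal, and 1446, 1378 and 1661 CPM in Hezuo cold. Here too all groups overlapped. In none of the 7 comparisons did a CCA entry pass by edgeR, beside 0% to 11.1% of all entries tested, so 0 of 17 lies near the share of all entries in most of them. Those with an unadjusted p below 0.05 were miR-2478-z between breeds over both temperatures (-0.24, SE 0.11, adjusted p = 0.188) and miR-10955-z for cold over both breeds (0.69, SE 0.30, adjusted p = 0.253) and in Hezuo (0.94, SE 0.43, adjusted p = 0.516). Under the preset numbers known to overlap tRNA, rRNA or other structural RNA in human, mouse or cattle stood 6 of the 85 entries. Of these, 5 ended in CCA: miR-2478-z, miR-5100-z, miR-3968-z, miR-1260-z and miR-7977-z.

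**Figure D4:**
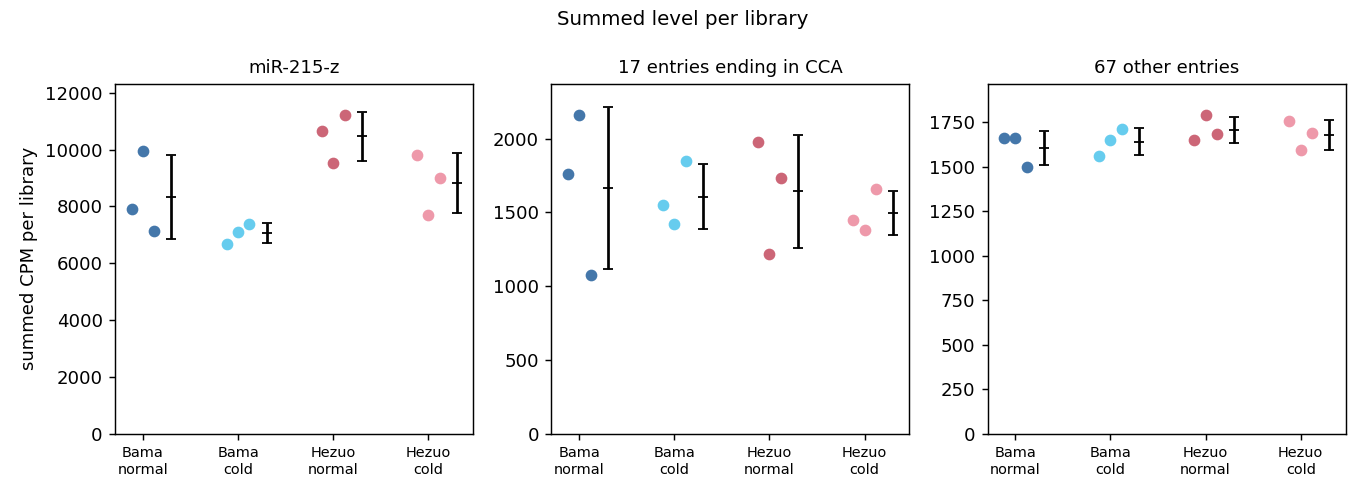
Summed level per library (CPM) of miR-215-z, of the 17 entries ending in CCA and of the other entries, with 1 point per library, 3 per group, and a bar for the group mean ± SD beside them. MiR-215-z has its lowest group mean in Bama cold, with libraries between 6672 and 7378 CPM, and the CCA entries spread most in Bama normal, from 1077 to 2157 CPM.

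What cold did to these entries was asked in both breeds together and in each alone. None of the 85 passed by edgeR averaged over breeds, against 2.17% of all entries tested, and 6 had an unadjusted p below 0.05 (7.06%, against 17.8%). In Bama alone 0 passed (1.09% of all tested) and 10 had an unadjusted p below 0.05 (11.8%, against 14.6%). In Hezuo alone 0 passed (0% of all tested) and 3 had an unadjusted p below 0.05 (3.53%, against 9.35%). DESeq2 called 0, 1 and 0 of them, the 1 being miR-508-y in Bama. Non-overlapping groups were seen in 12 entries in Bama (14.1%, against 16.7% of all tested) and in 6 in Hezuo (7.06%, against 15.4%). No entry had them in both breeds in the same direction (2.83% of all tested did). MiR-93-x at -0.24 (SE 0.16, adjusted p = 0.549) and miR-340-y at -0.23 (SE 0.16, adjusted p = 0.570) were lower in every cold Bama liver and did not pass. Among the Bama entries apart but below 10 CPM were miR-1247-y at 1.38 (SE 0.56, adjusted p = 0.281), miR-10395-y at 1.03 (SE 0.47, adjusted p = 0.335) and miR-455-z at -0.91 (SE 0.40, adjusted p = 0.322), none of which passed. The median log2 difference was -0.03 over breeds, 0.07 in Bama and -0.05 in Hezuo, beside -0.03, -0.01 and -0.04 for all entries tested. MiR-215-z was at -0.24 over both breeds (SE 0.09, adjusted p = 0.214) and miR-203-y at 0.23 (SE 0.10, adjusted p = 0.231).

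Between breeds under cold, 0 of the 85 passed by edgeR and by DESeq2, against 4.35% of all tested by edgeR. By edgeR 7 had an unadjusted p below 0.05 (8.24%, against 15%). MiR-215-z at 0.32 (SE 0.13, adjusted p = 0.246), miR-215-x at 0.39 (SE 0.14, adjusted p = 0.170) and miR-193-x at 0.54 (SE 0.21, adjusted p = 0.208) were among the 10 entries (11.8%, against 20.2% of all tested) whose groups did not overlap. At normal temperature 15 entries had groups that did not overlap (17.6%, against 22.2%) and 15 an unadjusted p below 0.05 (against 20.2%). Without overlap there were miR-365-x at 0.55 (SE 0.27, adjusted p = 0.283) and let-7-y at -0.17 (SE 0.18, adjusted p = 0.658), among others. Over both temperatures 16 had an unadjusted p below 0.05 (18.8%, against 25.9%). For the difference of the cold response between breeds 0 passed by edgeR and by DESeq2, against 0% of all tested by edgeR. An unadjusted p below 0.05 was seen in 5 (5.88%, against 5.43%), miR-508-y, miR-507-z and miR-507-y among them. The comparisons share libraries, so their values for an entry are not independent of each other.

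**Figure D5:**
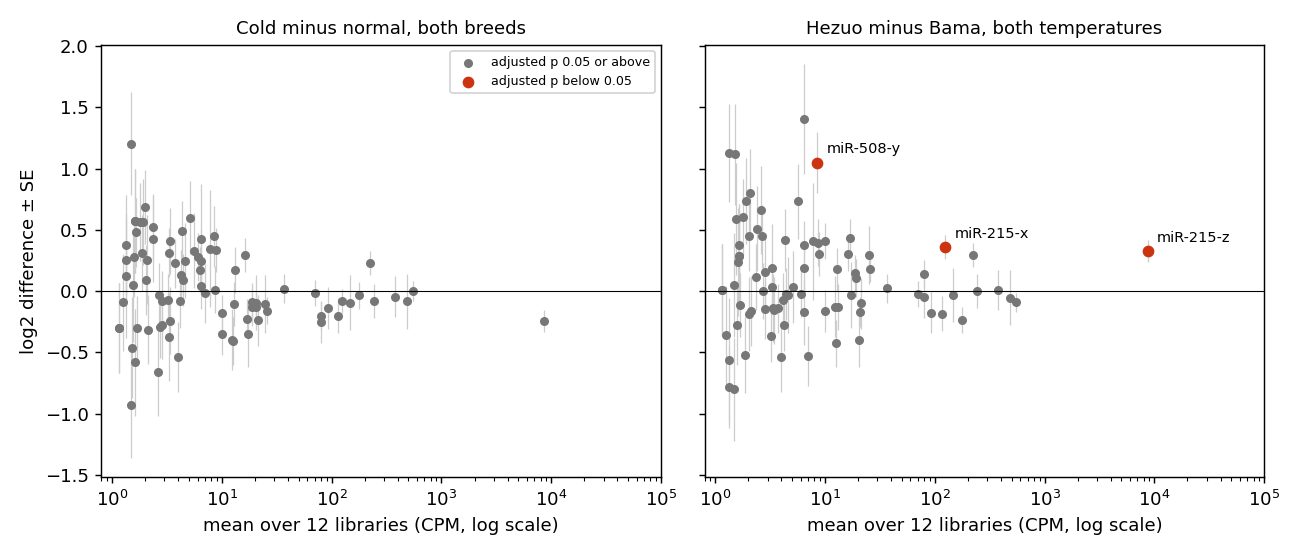
Log2 difference ± SE of each of the 85 entries against its mean level (CPM, log axis), for cold minus normal over both breeds and Hezuo minus Bama over both temperatures. No entry passes for cold; miR-508-y, miR-215-x and miR-215-z pass between breeds and lie above 0.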

How the data were processed

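Per the labels' protocols, total liver RNA was size-selected to 18-30 nt before adapter ligation. The authors deposited raw tag counts and TPM (tags scaled to a fixed library total, with a count of 0 written as 0.01 TPM, per the file headers and values) for 774 entries. Aligner, miRNA database and genome build were not given in sources used here, and 2 emptied lines were not used. The entries described and the lists of miR numbers were chosen with earlier results of these data known. Entries named with values are the most abundant, those called, and up to 3 per direction and comparison with the largest differences among groups that do not overlap, where some group averages 10 CPM or more; the miR-506 to miR-509 entries, the miR-193 and miR-144 entries and other low ones were added after their values were seen.

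Counts were tested with edgeR 4.0.16 in R 4.3.3: TMM scaling, filterByExpr by group, robust quasi-likelihood F tests in 1 model of 12 libraries and 4 groups, and Benjamini-Hochberg adjustment over the 460 entries that passed, calls being adjusted p values below 0.05. All 85 entries passed that filter. CPM values were computed on TMM-adjusted library sizes. The biological coefficient of variation was 25.0%. The procedure was tested on simulated counts. Shared runs, seeds and 3′ ends were read from the deposited sequences. DESeq2 1.42.0, other scalings and filters, a replicate block, sums over shared first 16 nt and leaving out each library were tried. The labels number the pigs within each group but do not say whether a number is the same animal at both temperatures. The 12 libraries were treated as separate, and p-values measure the spread between them. With 3 against 3 libraries an exact test of a single value could not pass, and none was run. Replicate libraries differed by more than sampling noise (chi-squared per degree of freedom at least 36.9). Tags without molecular identifiers are not independent molecules.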

Additional observations from a re-analysis of the deposited data

How the results depend on the processing

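The 44 named differences were mostly chosen for their size, a call or values already seen. Each refit reused most or all of the same libraries, so a kept direction says little about stability. Of 836 recomputed values for these differences, 834 kept their direction. The exception was miR-509-y under cold in Hezuo, at 0.02, which turned to -0.34 without Hezuo normal 1 and to -0.25 without Hezuo cold 1, while the highest value on leaving out a library was 0.37. Between breeds averaged over temperatures the 3 called entries became 1 with library totals and 6 when entries sharing their first 16 nt were summed (miR-193-x, miR-193-y, miR-508-y and the sums of miR-203, miR-215 and miR-507), with 1 to 4 when 1 library was left out. At normal temperature the 1 call became 4 with DESeq2 (miR-203-y, miR-508-y, miR-507-y and miR-507-z), 3 with the sums, and 0 to 2 when 1 library was left out. In Bama under cold the 0 calls became 1 with DESeq2. The other comparisons kept 0 calls in each setting run. The cause of these changes was not tested. Without miR-215-z the summed share was 0.326% in place of 1.19%. Library totals shifted the median of all entries by 0.18 for cold in Hezuo, -0.12 for breed at normal temperature and 0.17 for the difference of the cold response. The rule would give 72 entries with shifted starts counted as matches and 62 with a threshold of 2 TPM.

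Libraries of the same pig number correlated in their deviations at 0.00785 to 0.168. Unlike numbers were not compared, so these values cannot settle whether a number is the same animal. The numbers were not taken as pairs in the main fit. A replicate block was also run. For cold and for the difference of the cold response, each number within a breed was a block. For the breed comparisons the block was the number alone, shared by both breeds. It ties pigs that cannot be the same animal, so it does not bear on pairing. With these blocks, 2 entries passed between breeds averaged over temperatures (miR-215-z had an adjusted p of 0.0653) and 1 at normal temperature. In the other comparisons 0 passed. Levels near 1 CPM rest on few counts per library, which limits what differences can be seen there.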
